A study of Rattus norvegicus with 4 samples.

Results

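Zfp genes encode zinc finger proteins. They were chosen here by symbol, as the genes whose NCBI rat symbol is Zfp, a number and at most 1 letter and 1 further digit, a rule that uses no measured value. The RefSeq table held 372 of them, and 204 of the 8729 genes with a listed m6A peak were Zfp genes.

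m6A is a methyl mark on adenosines of mRNA, and FTO is an enzyme that can remove it. Cardiac fibroblasts (CFs), the cells that make the collagen scaffold of the heart, were isolated as primary cells from hearts of healthy Sprague-Dawley rats aged at most 3 days. The Vector group received the empty plasmid (labelled control, wild-type genotype), and the FTO group a pcDNA plasmid carrying rat FTO cDNA (labelled treated, FTO overexpression), each for 48 h. For each of the 2 groups, RNA captured by an m6A antibody was sequenced in 1 library and the input RNA in 1 library, and each group has 1 peak list made by the authors. A peak is a stretch of a transcript where pulled-down RNA exceeds input, and its length in bp is the value listed. The plasmids entered the cells transiently, and the share of cells that took them up was not analysed here. With 1 pair of libraries per group there is no replicate check on any difference between the groups, and no p-values are given. Sequencing depth is unknown, and fewer peaks through less methylation and fewer peaks through fewer transcripts cannot be told apart. Intervals below are 95% Wilson intervals of a share and cover counting error only, and genes are not replicates.

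Most Zfp proteins hold arrays of C2H2 fingers, small loops folded around a zinc ion that read DNA sequence. Many of them also carry a KRAB domain, which recruits the co-repressor Trim28 and with it histone methylation and silent chromatin, often at retroelements. Other members use zinc fingers to bind RNA. The symbol therefore covers more than transcription factors: Zfp36, Zfp36l1 and Zfp36l2 have CCCH fingers and direct the decay of mRNAs, and further members act in splicing, on ribosomes or as ubiquitin and SUMO ligases. These are described with their own values below.

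Fto itself, the transfected gene, had 3 Vector peaks and 9 FTO peaks. Its longest peak was 144 bp in the Vector list against 2021 bp in the FTO list, and plasmid and endogenous transcripts were not separated. Of 11 markers of cardiac fibroblasts, 6 had a peak in at least 1 list, with 12 Vector and 11 FTO peaks in all. Pdgfra, a growth factor receptor of fibroblasts, had 7 and 6, and Tcf21, a fibroblast transcription factor, had 1 and 1. No peak was listed for Dcn, Vim, Col1a1, Col1a2 or Col3a1. Markers of other heart cells had peaks too. Of 9 cardiomyocyte markers, 6 had 23 Vector and 25 FTO peaks, among them Myh6 with 7 and 7, Myh7 with 8 and 5, Tnnt2 with 4 and 7 and Ryr2 with 2 and 5, while Nppa, Nppb and Ttn had none. Endothelial markers had 7 and 6 peaks on 2 of 5 genes, with none on Pecam1, Cdh5 or Kdr, and macrophage markers had 13 and 9 on 4 of 5 genes, led by Ptprc with 10 and 7. Of 3 smooth muscle markers, Myh11 alone had peaks, 17 and 15. A peak list does not measure how much of a transcript was there, so it does not give the makeup of the cultures, and the part of other cell types in the values of the Zfp genes was not tested.

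Zfp transcripts carried few peaks but long ones. The Zfp genes had 374 peaks on 186 genes in the Vector list against 336 peaks on 190 genes in the FTO list, and 172 genes had peaks in both. These were 1.76% of 21249 Vector peaks and 1.89% of 17796 FTO peaks. By summed length their share was larger, 3.94% and 4.33%, and among peaks of at least 1000 bp it was 5.69% and 5.96%. The family thus took about the same share of each list by any of these counts.

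The median length of a Zfp peak was 850.5 bp in the Vector list, with the middle 50% between 187.25 and 1713 bp. In the FTO list it was 1127 bp, with the middle 50% between 264.75 and 1821 bp. Peaks of all other genes had medians of 201 and 224 bp. Lengths of Zfp peaks ran from 21 to 8716 bp in the Vector list and from 29 to 8802 bp in the FTO list. Of the Zfp peaks, 172 (46.0%, 41.0% to 51.1%) in the Vector list and likewise 177 (52.7%, 47.3% to 58.0%) in the FTO list were at least 1000 bp long. In all other genes these shares were 13.7% (13.2% to 14.1%) and 16.0% (15.4% to 16.5%). Long Zfp peaks were therefore a property of both groups, with intervals far above those of other genes in each.

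**Figure D1:**
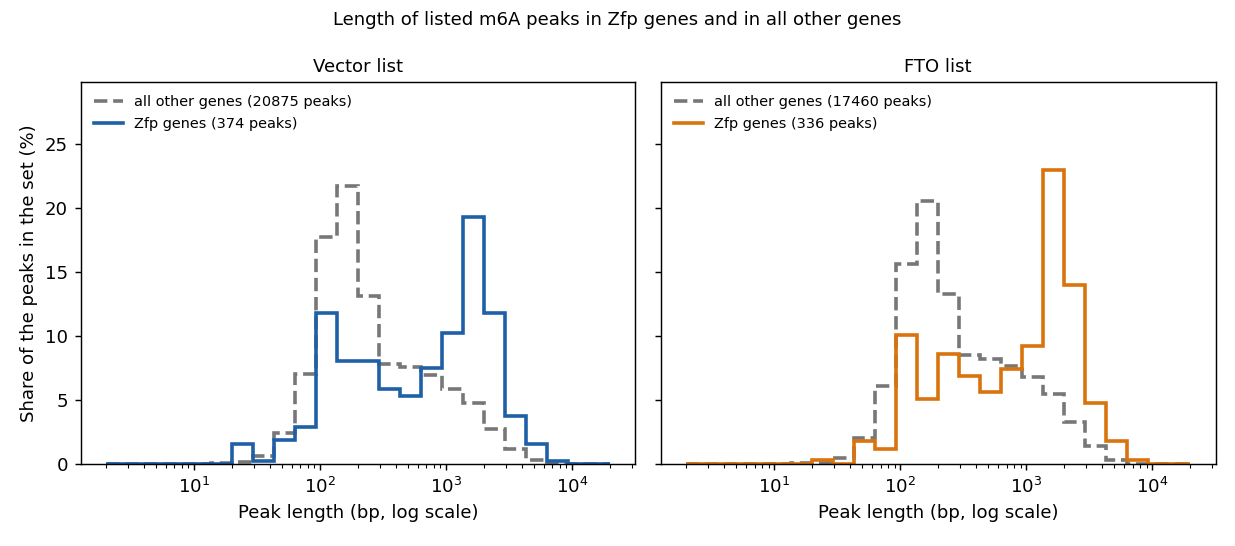
Distribution of peak lengths in bp, on a log axis, as the percentage of peaks in each length class, for Zfp genes (solid line) and all other genes (dashed line), in the Vector list (left) and the FTO list (right). In both lists the dashed line is highest just below 200 bp, while the solid line is highest between 1362.58 and 2000 bp, with 19.3% of the Zfp peaks in the Vector list against 22.9% in the FTO list.

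The long peaks were spread over the family. At least 1 peak of 1000 bp or more was found on 155 of 186 Zfp genes (83.3%, 77.3% to 88.0%) in the Vector list, and on 159 of 190 (83.7%, 77.8% to 88.3%) in the FTO list. All other genes had such a peak in 34.0% and 36.3% of cases. The longest peak of a Zfp gene had a median of 1688.5 bp in the Vector list against 1755.5 bp in the FTO list, and in other genes 641 and 685 bp. Among genes with a single peak, the medians for Zfp genes were 1693 and 1747 bp and for others 532.5 and 588.5 bp. Summed over a gene, the listed length had a median of 1899 and 1903 bp for Zfp genes and of 946 and 955 bp for other genes. The summed length of called peaks per gene was thus larger for Zfp genes, in fewer peaks.

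A Zfp gene with any peak had a mean of 2.01 peaks in the Vector list against 1.77 in the FTO list, and all other genes had 2.71 and 2.46. The median was 1 for Zfp genes and 2 for other genes in both lists. The highest number on a Zfp gene was 7 in either list, and on another gene 34 and 29. A single peak was listed for 97 Zfp genes (52.2%, 45.0% to 59.2%) in the Vector list, and for 112 (58.9%, 51.8% to 65.7%) in the FTO list. In other genes the shares with a single peak were 42.1% (41.0% to 43.2%) and 46.6% (45.5% to 47.8%). The means were closer without short peaks. With peaks of at least 200 bp alone, Zfp genes had a mean of 1.5 Vector and 1.47 FTO peaks and other genes 1.64 and 1.6.

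Genes with other names for zinc finger proteins were set beside the Zfp genes. Of 125 genes named Znf, Zbtb, Zscan or Zkscan, most of which are C2H2 proteins, 62 had a peak. The mean was 1.78 peaks over the 60 of them in the Vector list and 1.72 over the 57 in the FTO list, and the median lengths were 861 and 1012 bp. These values lay close to those of the Zfp genes. In the RNA-binding Zc3h family, 13 genes in the Vector list had a mean of 5.69 peaks and 12 in the FTO list one of 5.33, with median lengths of 181.5 and 187.5 bp, so they had more and shorter peaks than either set.

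Of the 365 protein-coding Zfp genes, 204 (55.9%, 50.8% to 60.9%) had a peak in at least 1 list, against 35.1% (34.5% to 35.8%) of all other protein-coding genes and 62 of the 98 protein-coding Znf, Zbtb, Zscan and Zkscan genes (63.3%, 53.4% to 72.1%). The other 161 had none, and 7 members that are pseudogenes or long non-coding RNAs had none either. Many Zfp genes lie in clusters of near-identical copies, for which reads can be split or lost and a peak can stand under the wrong copy, so values of such genes are uncertain. Of 57 copies named by an added l after the symbol of another gene, leaving out the Zfp36 relatives, 2 (3.51%, 0.968% to 11.9%), Zfp94l1 and Zfp707l1, had a peak. Without these copies, 65.6% (60.1% to 70.7%) of the Zfp genes had a peak. Whether the annotation used by the authors held the genes without a peak was not tested.

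Position in a cluster also went with peak number. Among protein-coding Zfp genes next to another Zfp gene on the chromosome, 80 of 167 (47.9%, 40.5% to 55.4%) had a peak, and among those with no such neighbour 124 of 198 (62.6%, 55.7% to 69.1%). Leaving out the copies named with an added l, the shares were 59.1% (50.6% to 67.1%) and 70.5% (63.3% to 76.7%), with intervals that overlap. Such overlap does not show that the shares are equal, and their difference was not tested. Neighbouring Zfp genes with a peak had a mean of 1.65 Vector and 1.57 FTO peaks, and the others 2.25 and 1.89. The median longest peak differed less, at 1577 and 1741.5 bp for neighbours and 1733 and 1772.5 bp for the others.

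Between the groups, the number of peaks was the same for most Zfp genes. Of the 204 genes, 120 (58.8%, 52.0% to 65.4%) had as many peaks in both lists, where 37.4% of all genes did. Fewer FTO peaks than Vector peaks were listed for 52 (25.5%, 20.0% to 31.9%), below the 41.4% over all genes, and more for 32 (15.7%, 11.3% to 21.3%), against 21.2%. The FTO list is shorter as a whole, with 1.19 Vector peaks for every FTO peak. When FTO numbers were multiplied by this ratio and rounded, 48 Zfp genes (23.5%) had fewer, 47 (23.0%) more and 109 (53.4%) as many, and over all genes the shares were 36.2%, 29.8% and 34.0%. This scaling can only raise numbers, and rounding lets it alter only those of 3 or more, which 33 Zfp genes had. With peaks of at least 200 bp alone, 32 of 202 Zfp genes (15.8%, 11.5% to 21.5%) had fewer, against 27.5% of all genes, and 31 (15.3%, 11.0% to 21.0%) had more, against 18.6%. The genes named Znf, Zbtb, Zscan or Zkscan had shares like those of the Zfp genes as listed, 58.1% (45.7% to 69.5%) with as many peaks, 24.2% (15.2% to 36.2%) with fewer and 17.7% (10.2% to 29.0%) with more.

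Zfp and other genes were also compared at equal numbers of Vector peaks. Within a set, the share with fewer FTO peaks depends on the Vector number by construction, since a gene with more peaks has more to lose, so only the sets are compared here. Among genes with 1 Vector peak, 12 of 97 Zfp genes (12.4%, 7.22% to 20.4%) had no FTO peak, against 32.1% (30.5% to 33.7%) of other genes. With 2 Vector peaks, 31.0% (19.1% to 46.0%) of Zfp genes and 46.9% (44.5% to 49.3%) of others had fewer, intervals that overlap. With 3 the shares were 57.9% and 56.7%, and with 4 or more they were 57.1% and 65.3%. The same genes were also split by the length of their single Vector peak, after the values were seen. Of genes whose single Vector peak was at least 1000 bp long, 9 of 86 Zfp genes (10.5%, 5.6% to 18.7%) and 18.1% (15.8% to 20.7%) of others had no FTO peak. Of those whose single Vector peak was shorter, 3 of 11 Zfp genes (27.3%, 9.75% to 56.6%) and 37.8% (35.9% to 39.8%) of others had none. In both length classes the intervals of Zfp and other genes overlap, and those of long and shorter peaks within the Zfp genes overlap too. Overlap of 2 intervals does not show that the shares are equal, and the differences were not tested.

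The difference in the number of Zfp peaks lay among short ones. Peaks under 200 bp numbered 99 in the Vector list against 62 in the FTO list, 37.4% fewer. All other genes had 10338 and 7801, 24.5% fewer. These 2 percentages have no interval, and whether they differ was not tested. In other genes, too, most of the difference was in short peaks, 2537 of 3415. The genes named Znf, Zbtb, Zscan or Zkscan had 17 peaks under 200 bp in each list. Zfp peaks from 200 bp to under 1000 bp numbered 103 and 97. Those of at least 1000 bp numbered 172 and 177, against 2853 and 2791 in other genes. The FTO list thus held 38 fewer Zfp peaks, made up of 37 fewer short ones, 6 fewer of middle length and 5 more long ones.

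Among the 172 Zfp genes with peaks in both lists, the longest peak had exactly the same length in 106 (61.6%, 54.2% to 68.6%), where 60.6% of all such genes did. It was shorter in the FTO list in 24 (14.0%, 9.56% to 19.9%), against 19.2%, and longer in 42 (24.4%, 18.6% to 31.4%), against 20.2%. Every peak had the same length in both lists in 71 genes (41.3%, 34.2% to 48.7%), where 28.4% of all genes and 36.4% (24.9% to 49.6%) of the Znf, Zbtb, Zscan and Zkscan genes did. A gene with fewer peaks has fewer that can differ, so this share depends on peak number by construction. A change of the longest peak by over 10% was found in 26 Zfp genes (15.1%, 10.5% to 21.2%) and in 24.9% (23.9% to 26.0%) of other genes. The longest peaks of Zfp genes are longer, so an equal change in bp is a smaller percentage of them. Where the longest peak changed, the median change in either direction was 111.5 bp in Zfp genes and 135 bp in other genes. The shares of shorter and longer peaks in the Zfp genes were near those over all genes.

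A change of the longest peak by 1000 bp or more was found in 7 Zfp genes, named here after their values were seen. In 1 of the 172 (0.581%, 0.103% to 3.22%) it was shorter in the FTO list, against 2.18% over all genes, and in 6 (3.49%, 1.61% to 7.4%) longer, against 2.34%, and both intervals include the share over all genes. The 6 were Zfp605 (1485 and 2553 bp), Zfp467 (2476 and 3812 bp), Zfp592 (2233 and 3740 bp), Zfp512 (188 and 1821 bp), Zfp275 (4039 and 5704 bp) and Zfp423 (1287 and 3215 bp). In Zfp512b the longest peak was 2994 bp in the Vector list against 587 bp in the FTO list. Positions were not compared, so whether the longest peaks of a gene lie at the same site was not tested.

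**Figure D2:**
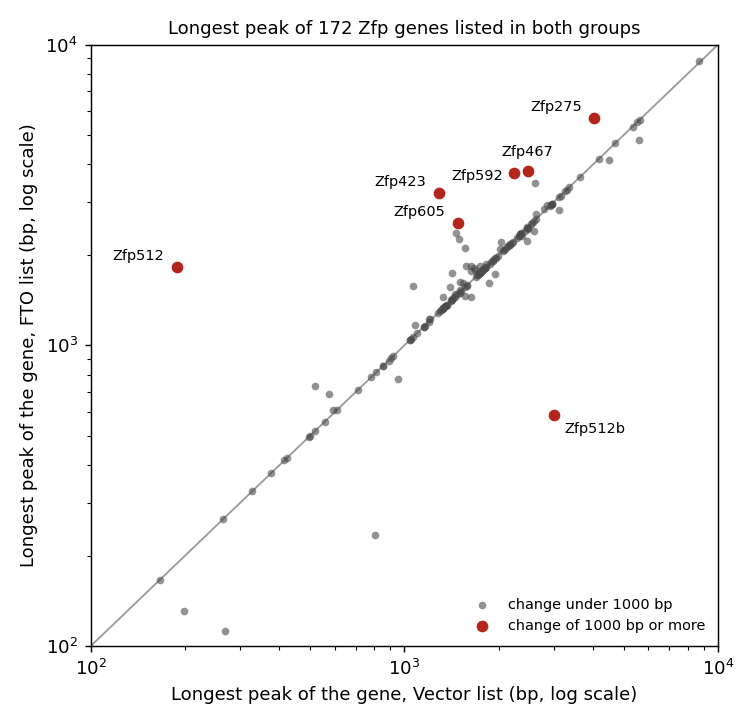
Longest listed peak of each of the 172 Zfp genes with peaks in both lists, in bp on log axes, Vector list across and FTO list up, with the line of equal length. Each point is 1 gene, and 106 lie on the line. Named points are the 7 genes with a change of 1000 bp or more, 6 above the line and Zfp512b below it.

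Each Zfp peak was matched to at most 1 peak of the same gene and equal length in the other list. Of the Zfp peaks, 153 in the Vector list (40.9%, 36.0% to 46.0%) and 115 in the FTO list (34.2%, 29.4% to 39.5%) had no partner, and for peaks of all other genes the shares were 42.8% (42.1% to 43.5%) and 31.6% (30.9% to 32.3%). The Zfp intervals include both values, so no difference from other genes was detectable. When lengths within 10% counted as equal, the Zfp shares were 28.1% and 19.9%, and when any peak of the same gene counted, 19.3% and 10.1%. By length, 48 of 99 Vector peaks under 200 bp (48.5%, 38.9% to 58.2%) and 11 of 62 such FTO peaks (17.7%, 10.2% to 29.0%) had no partner. Among those of at least 1000 bp the numbers were 72 of 172 (41.9%, 34.7% to 49.3%) and 77 of 177 (43.5%, 36.4% to 50.9%). For peaks of other genes, the shares in the Vector and FTO lists were 45.2% and 27.4% under 200 bp and 47.7% and 46.5% at 1000 bp or more. From 200 bp to under 1000 bp, Zfp peaks had shares of 32.0% (23.8% to 41.6%) and 27.8% (19.9% to 37.5%), and others 37.6% and 30.2%. In the FTO list the Zfp share was thus lower than that of other genes in each length class, but higher over all peaks. Each Zfp interval includes the value of other genes. Since pairing is 1 to 1, the gap between the short classes of the lists follows from their numbers of peaks.

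The CCCH proteins that bind AU-rich elements and hand mRNAs to deadenylases had the same number and lengths of peaks in both lists. Peak heights were not compared. Zfp36, also known as tristetraprolin, had 1 peak of 1768 bp in both lists. Zfp36l1 had 1 peak of 2558 bp in both, and Zfp36l2 1 peak of 3254 bp in both. Zfp36l3, a rodent relative known from placenta, had none. Each of the 3 detected members thus carried a single long peak of exactly equal length. Of all genes in both lists, 28.4% had the same set of lengths. Unlike these 3, many of those genes have several peaks that can differ, so the share is no like comparison.

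Of 8 factors of RNA and ribosomes, 7 had peaks, 23 in each list, with fewer FTO peaks in 1 gene, as many in 4 and more in 2, where 41.4%, 37.4% and 21.2% of all genes did. Zfp622, a factor of large ribosomal subunit maturation, had Vector peaks of 127, 144, 253, 424, 876 and 1564 bp and FTO peaks of 144, 253, 876 and 2114 bp. Zfp593, of the same pathway, had 1 peak, of 1634 bp in the Vector list against 1445 bp in the FTO list. Zfp598, a ubiquitin ligase that marks collided ribosomes, had peaks of 225 and 908 bp in both lists. Ribosome factors thus included genes with the same peak lengths in both lists and genes with differing ones.

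Zfp106, an RNA-binding protein that motor neurons need, had 6 peaks of 54, 58, 62, 163, 616 and 2176 bp in both lists. Zfp638, a nuclear RNA-binding protein, had Vector peaks of 39, 916, 1216 and 1513 bp and FTO peaks of 99, 315, 916, 1216 and 1513 bp. Zfp326, a splicing factor, had Vector peaks of 113, 116 and 199 bp and FTO peaks of 96, 116, 126 and 131 bp. Zfp638 and Zfp326 were the 2 genes of the list with more FTO peaks. Zfp385a, linked to the p53 response, had 1 peak of 1330 bp in both lists, and Zfp346, which binds double-stranded RNA, had none.

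Both ligases outside the ribosome had several peaks. Zfp91, a ubiquitin ligase of NF-kB signalling, had peaks of 29, 79, 207 and 377 bp in both lists. Zfp451, a SUMO ligase, had Vector peaks of 81, 118, 126, 187 and 1583 bp and FTO peaks of 81, 118 and 1583 bp. The peaks listed for Zfp451 in the Vector group alone were short. Of the pair, 1 had fewer and 1 as many FTO peaks, where 41.4% and 37.4% of all genes did.

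Of 12 regulators of cell lineage, 10 had peaks, 22 in the Vector list against 19 in the FTO list, with fewer FTO peaks in 3 genes, as many in 5 and more in 2. Over all genes the shares were 41.4%, 37.4% and 21.2%. Zfp423, which commits mesenchymal cells to fat, had 1 Vector peak of 1287 bp and FTO peaks of 79 and 3215 bp. Zfp521, its close relative with opposing effects on fat formation, had Vector peaks of 116, 122, 132, 793 and 3356 bp and FTO peaks of 122 and 3356 bp. These related genes went in opposite directions in peak number. Zfp521 was 1 of 2 Zfp genes that differed by at least 3 peaks, and its longest peak had equal length in both lists. The share of all genes that differed by at least 3 peaks is not given here, so whether 2 is few or many was not tested.

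Zfp467, which shifts marrow stromal cells between fat and bone, had peaks of 289 and 2476 bp in the Vector list and of 289 and 3812 bp in the FTO list. Zfp516, an activator of brown fat genes, had peaks of 105, 386, 1452 and 1924 bp in both. Zfp217, an oncogene that is amplified in breast tumours, had Vector peaks of 130, 1506 and 1733 bp and FTO peaks of 1506 and 1733 bp. In all 3 genes, peaks of over 1000 bp stood in both lists.

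Zfp503, a regulator of striatal neurons, had Vector peaks of 761 and 2340 bp and 1 FTO peak of 2340 bp. Zfp703, its relative, had 1 Vector peak of 2933 bp and FTO peaks of 275 and 2933 bp. Zfp536, a brake on neuronal differentiation, had peaks of 1787 and 2369 bp in the Vector list and of 1787 and 2305 bp in the FTO list. The relatives Zfp503 and Zfp703 again differed in direction, each by 1 shorter peak beside a long one of equal length in both lists. Zfp281, a factor of embryonic stem cells, had 1 peak of 2916 bp and Zfp219, a partner of Sox9 in cartilage, 1 of 1435 bp, each the same in both lists. Zfp42, a marker of pluripotent cells also called Rex1, had no peak, and Zfp750 was not found under that symbol.

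Of 13 partners of chromatin complexes, 10 had peaks, 34 in the Vector list against 31 in the FTO list, with fewer FTO peaks in 3 genes, as many in 5 and more in 2, beside 41.4%, 37.4% and 21.2% over all genes. Zfp462, needed for heterochromatin in stem cells, had Vector peaks of 124, 133, 137, 1215 and 5621 bp. Its FTO peaks had 124, 133, 137, 224, 268, 1242 and 5621 bp, so the longest peak and the 3 shortest ones had equal lengths, and the additional FTO peaks had 224 and 268 bp. Zfp644, a partner of the histone methyltransferases G9a and GLP, had Vector peaks of 98, 103, 302 and 2213 bp and FTO peaks of 103 and 2213 bp. Zfp292, a gene with a very large exon of zinc fingers, had Vector peaks of 155, 191 and 8716 bp and 1 FTO peak of 8802 bp, the longest Zfp peak in each list. In these 3 genes a peak of over 2000 bp stood in both lists, at equal length in Zfp462 and Zfp644.

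Zfp518a had 1 peak, of 5613 bp in the Vector list against 4812 bp in the FTO list, and its relative Zfp518b 1 peak of 3630 bp in both. Zfp592 and Zfp532 belong to a complex of related zinc finger proteins that binds Zmynd8. Zfp592 had Vector peaks of 1808 and 2233 bp and FTO peaks of 288, 2233 and 3740 bp. Zfp532 had Vector peaks of 151, 863 and 2354 bp and FTO peaks of 113, 151 and 2354 bp. Zfp687, of the same complex, had none.

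Zfp608 and Zfp609 are a related pair, the latter known to bind the Integrator complex and cohesin loader Nipbl. Zfp608 had 6 peaks in each list, of 123, 256, 418, 1086 and 2455 bp in both and a further one of 847 bp in the Vector list against 910 bp in the FTO list. Zfp609 had Vector peaks of 88, 217, 226, 367, 872 and 2341 bp and FTO peaks of 226, 367, 872 and 2341 bp. The longest peak of each thus had equal length in both groups, and Zfp609 had fewer FTO peaks, without the ones of 88 and 217 bp. Zfp827, which recruits the NuRD complex at telomeres, had peaks of 234, 481 and 1045 bp in both lists. Zfp335 and Zfp410 had no peak.

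Of 3 KRAB factors listed for imprinting and retroelements, Zfp57 had 1 peak of 1414 bp and Zfp445 1 of 423 bp, each the same in both lists. The sets of lengths were the same in 28.4% of all genes in both lists. That share also covers genes with several peaks, which have more that can differ. Zfp568, a repressor of placental Igf2 transcripts in mice, had none.

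Of 7 factors that bind and activate promoters, 5 had peaks, 17 in the Vector list against 9 in the FTO list, with fewer FTO peaks in 4 genes, as many in 1 and more in 0. Over all genes 41.4%, 37.4% and 21.2% did, and among genes with 4 or more Vector peaks, as 3 of these 5 had, fewer were listed for 57.1% of Zfp genes and 65.3% of others. Zfp143, a factor of promoter contacts, had Vector peaks of 147, 149, 228 and 956 bp and 1 FTO peak of 774 bp. It was the other Zfp gene that differed by at least 3 peaks, a cut for which no share over all genes is given here. Zfp148, which binds GC-rich promoters, had the most Vector peaks of any Zfp gene, of 82, 84, 126, 137, 155, 349 and 1798 bp. Its FTO peaks were those of 126, 137, 155, 349 and 1798 bp. The peaks missing for Zfp148 were thus its shortest ones.

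Zfp384, a nuclear matrix factor that acts in bone, had Vector peaks of 60, 222, 225 and 1556 bp and FTO peaks of 222 and 1465 bp. Zfp260, which acts with Gata4 in heart muscle cells, had 1 Vector peak of 3513 bp and no FTO peak. It was the longest peak among the Zfp genes found in 1 list only. Zfp24, needed for myelination, had 1 peak of 500 bp in both lists. Zfp367 had none, and Zfp76 was not found under that symbol. The list is small, was one of several, and has no replicates behind it.

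Of 3 genes of cell division and genome stability, each had a peak. Zfp207, a spindle protein that stabilises the checkpoint factor Bub3, had no Vector peak and 1 FTO peak of 359 bp. Zfp365, which protects chromosomes under replication stress, had Vector peaks of 759, 875 and 1209 bp and FTO peaks of 759 and 1229 bp. Zfp830, needed for early embryos, had 1 peak of 1467 bp in both lists. The 3 genes went in 3 directions, with more, fewer and as many FTO peaks, as 21.2%, 41.4% and 37.4% of all genes had.

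Further Zfp genes stood out by the number of Vector peaks, at least 5, and belong to no list above. Zfp142 had Vector peaks of 106, 165, 606, 825, 1181 and 2956 bp and FTO peaks of 106, 825, 1611 and 2956 bp. Zfp282, a KRAB-type repressor, had 6 Vector peaks of 114, 114, 120, 272, 420 and 2639 bp and 7 FTO peaks of 114, 114, 120, 120, 263, 420 and 2740 bp. Zfp507 had Vector peaks of 91, 115, 174, 1482 and 2084 bp and FTO peaks of 203, 1482 and 2084 bp. In Zfp142 and Zfp507 the longest peak was the same in both lists, and in Zfp282 it was longer in the FTO list.

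Zfp746, a KRAB repressor of Ppargc1a that is also called Paris, had Vector peaks of 126, 192, 278, 300 and 2598 bp and FTO peaks of 192, 279, 300 and 2598 bp. Zfp496 had Vector peaks of 108, 133, 197, 428 and 2282 bp and the same FTO peaks without that of 108 bp. Both thus lacked their shortest Vector peak in the FTO list. Zfp777 had 5 peaks in each list, of 114, 127, 252 and 858 bp in both, and a longest one of 1535 bp in the Vector list against 1618 bp in the FTO list. Zfp318 had 5 in each, of 152, 643, 1437 and 3114 bp in both, with one of 302 bp in the Vector list and one of 201 bp in the FTO list. Zfp362 had peaks of 117, 159, 225, 247 and 328 bp in both lists, with no long peak, unlike most of the family.

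Of the genes with the longest peaks, Zfp275 had Vector peaks of 1537 and 4039 bp and FTO peaks of 116 and 5704 bp. Zfp629 had Vector peaks of 110, 472, 1443 and 5517 bp and FTO peaks of 1349 and 5517 bp. In Zfp629 the longest peak was the same in both lists and in Zfp275 it was longer in the FTO list.

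**Figure D3:**
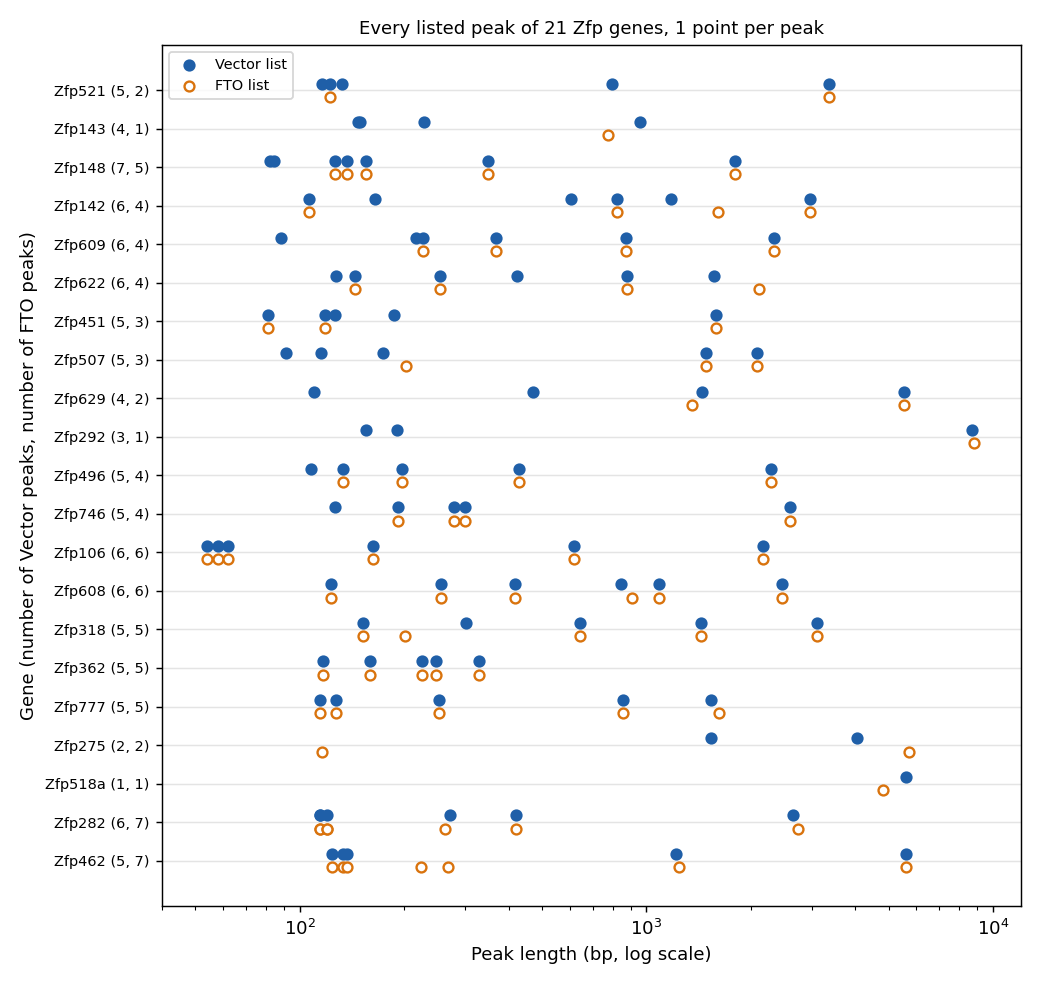
Every listed peak of 21 Zfp genes, those with at least 5 Vector peaks, a difference of at least 3 peaks or 1 of the 5 longest peaks, with length in bp on a log axis. Filled points are Vector peaks, open points FTO peaks and points of equal length within a list overlap; the numbers behind each symbol are the Vector and FTO peaks. For Zfp148 the Vector peaks of 82 and 84 bp have no open point below them, and for Zfp106 and Zfp362 every peak has one.

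Peaks in the Vector list only were found for 14 Zfp genes (6.86%, 4.13% to 11.2%), where 16.4% of all genes had them, and in the FTO list only for 18 (8.82%, 5.65% to 13.5%), against 9.57%. The genes of the Vector list alone were Zfp2, Zfp40, Zfp78, Zfp110, Zfp113, Zfp260, Zfp322a, Zfp418, Zfp444, Zfp637, Zfp647, Zfp655, Zfp949 and Zfp951. Of these, 12 had 1 peak, and the longest peak of each had a median of 1206 bp and a range from 340 to 3513 bp. Zfp322a had peaks of 232 and 2501 bp and Zfp444 of 29 and 340 bp. Genes with Vector peaks only were thus a smaller share of the Zfp genes than of all genes, and in the Znf, Zbtb, Zscan and Zkscan genes this share was 8.06% (3.49% to 17.5%). Zfp genes with FTO peaks only were near the share over all genes.

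The genes of the FTO list alone were Zfp136, Zfp184, Zfp207, Zfp354a, Zfp386, Zfp395, Zfp422, Zfp455, Zfp458, Zfp483, Zfp511, Zfp606, Zfp654, Zfp786, Zfp788, Zfp819, Zfp870 and Zfp879. All 18 had 1 peak, with a median of 1625.5 bp and a range from 349 bp in Zfp511 to 2905 bp in Zfp458. A peak of at least 1000 bp was found in 14 of them, and in 10 of the 14 genes of the Vector list alone. Most Zfp genes found in 1 list only therefore carried a peak of at least 1000 bp, as did most Zfp genes in each list. Among genes with a single Vector peak and no FTO peak, that peak was at least 1000 bp long in 9 Zfp genes and shorter in 3. These were 9 of 86 and 3 of 11 Zfp genes with a single Vector peak of that length. In other genes the numbers were 172 of 949 and 868 of 2295. Long peaks were thus already the larger class among single Vector peaks of Zfp genes, and the smaller class in other genes. Of the 172 genes in both lists, Zfp462 and Zfp382 had the largest increase, by 2 peaks, and Zfp382 had 1 Vector peak of 1739 bp and FTO peaks of 261, 1594 and 1841 bp.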

How the data were processed

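m6A-seq of neonatal rat CFs was analysed from 4 libraries, 1 m6A-IP and 1 input in each group. The measurement used was the peak length in bp that the authors deposited, 1 list per group, and it was not normalized. The submitters' processing notes name cutadapt 1.9.3, HISAT2 2.0.4 and the build rn6. Peak names begin with MACS, and the version, settings and threshold of the peak caller are not given in the sources used here. Peak positions, heights and enrichment were not analysed, and depth is unknown.

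Zfp genes were found through the gene ID in the RefSeq table of GRCr8, used only for names, gene types and neighbours. It held no symbol for 234 of 7723 Vector gene IDs and 225 of 7145 FTO gene IDs, and 248 Vector and 213 FTO peaks had no gene ID, so Zfp genes among these were missed. Members and gene lists were chosen with earlier results of these data known. Named genes were the 10 with the most Vector peaks, ties included, all that differed by at least 3 peaks, the 5 with the longest peaks, all members of the role lists, and Fto. Zfp genes named outside this rule were chosen after their values were seen. Peaks were paired 1 to 1 by gene and equal length. The code was checked on a simulated list in which common peaks kept their lengths and changed ones were made far longer. The outcome followed from the pairing rule. It does not show whether peaks of equal length lie at the same site, or whether 1 site can have unequal lengths. Shares have 95% Wilson intervals. No test between groups was run. Alternatives were peaks of at least 100 or 200 bp, members found also by synonym or without the RNA lists, other pairing rules and scaling by list size. Zinc finger patterns in the proteins, planned as a description, were not analysed here. Scripts ran in Python 3.11.15 with scipy 1.17.1, pandas 2.3.3 and numpy 2.4.6.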

Additional observations from a re-analysis of the deposited data

How the results depend on the processing

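Over 15 results and 8 alternatives, 61 of 69 values stayed within 1.5 times the reported value or, for shares, inside its 95% Wilson interval. This band is wide. With FTO numbers scaled to the list sizes, 48 Zfp genes had fewer and 47 more FTO peaks, against 52 and 32 as listed. Both values counted as within the band, although the 2 numbers were then nearly equal. With peaks of at least 200 bp, 32 Zfp genes had fewer and 31 more FTO peaks. Other genes then had a mean of 1.64 Vector and 1.6 FTO peaks. The median length of Zfp peaks was then 1355 bp in the Vector list against 1445 bp in the FTO list. With all peaks it was 850.5 and 1127 bp, so the lists were closer without short peaks. Leaving out short peaks makes medians longer by construction. Means are not fixed in this way, since genes with short peaks alone drop out too. Unpaired shares of Zfp peaks were 28.1% in the Vector list against 19.9% in the FTO list with lengths within 10%, and 19.3% and 10.1% with any peak of the same gene, as looser rules pair more peaks. Pairing within a transcript left 40.9% and 34.2%. Adding 47 genes by synonym gave 67 genes with fewer and 37 with more FTO peaks. Leaving out the 12 genes of the RNA lists, chosen after seeing the data, gave 51 and 30. The alternative limited to proteins with a C2H2 pattern was not run, since no protein table was used here. No paired analysis was possible because there is 1 pair of libraries per group, and for the same reason no replicate could be left out. Depth, which is unknown, limits all comparisons of peak number between the lists.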

Other observations

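Partners of the Zfp proteins, which are not Zfp genes themselves, had peaks of their own. Of 15 genes of the machinery that KRAB zinc finger proteins recruit, 13 had peaks, 50 in the Vector list against 39 in the FTO list. In the FTO list, 7 of them had fewer peaks, 1 had more and 5 had an equal number. Over all genes the shares were 41.4%, 21.2% and 37.4%. Several of the 13 had 4 or more Vector peaks, and of non-Zfp genes with that many, 65.3% had fewer FTO peaks. Trim28, the co-repressor that binds the KRAB domain, had no peak in either list. Setdb1, the histone methyltransferase it recruits, had 5 Vector and 2 FTO peaks, and Morc2, a chromatin compaction ATPase, also had 5 and 2. Atf7ip, the partner of Setdb1, had 10 in each list. Chd4 had 6 in each list, Dnmt1 9 and 8, and Chd3 6 and 4.

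Of 17 genes of the CCR4-NOT deadenylase and of decapping, the machinery through which Zfp36 proteins destroy mRNAs, 12 had peaks, 22 in the Vector list against 20 in the FTO list. Fewer, as many and more FTO peaks were listed for 4 genes each, and for 41.4%, 37.4% and 21.2% of all genes. Cnot3, a subunit of CCR4-NOT, had 4 Vector and 6 FTO peaks, while Edc3, an enhancer of decapping, had 4 and 1, and Dcp2, the decapping enzyme, 3 and 1. These genes were named after their values were seen.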
